A study of Arabidopsis thaliana with 36 samples.

Results

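The 10 genes described here encode the major seed storage proteins of Arabidopsis thaliana and 2 oleosins, out of 33619 genes in the deposited table. They are the 2S albumins SESA1 (AT4G27140), SESA2 (AT4G27150), SESA3 (AT4G27160), SESA4 (AT4G27170) and SESA5 (AT5G54740), the 12S globulins, or cruciferins, CRA1 (AT5G44120), CRB (AT1G03880) and CRC (AT4G28520), and the oleosins OLEO1 (AT4G25140) and OLEO2 (AT5G40420). They were picked by name, because several of them differ between Ler and gin2 in these libraries. The levels that set gin2 against Ler are therefore given as a description and without a test.

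Whole seedlings, 4 days old and grown in liquid half-strength medium, were profiled by mRNA sequencing in 36 libraries, 12 in each of 3 experiments. In the ethylene experiment, Col-0 wild type grown with 0.5% glucose was treated with 10 µM ACC, the precursor of ethylene, for 2 h or 4 h, or mock-treated for the same times. In the glucose-TOR experiment, seedlings were grown without glucose and then given 15 mM glucose for 2 h (+Glc) or none (−Glc), in tor, labelled XVE-TOR RNAi, and in Col-0 wild type. In the glucose-HXK1 experiment, gin2, a mutant of the hexokinase and glucose sensor HXK1, and Ler wild type had the same glucose treatment. Each of the 12 groups held 3 libraries, which the labels call biological replicates. XVE is an inducible promoter system, and neither the inducer and its timing nor the number of lines is given in the labels.

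Storage proteins are made during seed maturation and packed into protein storage vacuoles, and oleosins coat the oil bodies of the embryo. Their genes are switched on by the seed regulators LEC1, LEC2, FUS3 and ABI3, with ABI5 and several bZIP factors, and are silenced after germination by repressors such as VAL1, VAL2 and PKL. Seedlings break down the stored protein and oil while they become autotrophic, so a seedling normally holds little of these transcripts.

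Levels are reads per 1e+06 reads (RPM), which are not scaled by transcript length, so levels are compared here between libraries and not between genes. Log2 changes are on the log2(RPM + 1) scale, which understates the change of low genes, and are given ± SE from limma with its Benjamini-Hochberg adjusted p, two-sided, over all genes tested. A gene was called at an adjusted p below 0.05. In RNA of whole seedlings, fewer cells that hold a transcript and less of it per cell cannot be told apart.

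Recovered reads per library, in units of 1e+06, numbered 16.4 to 21.5 in the ethylene experiment, 13.3 to 21.9 in the glucose-TOR experiment and 5.64 to 13.6 in the glucose-HXK1 experiment. The share of RPM on genes the file does not list was 13.0 to 18.0% in gin2 libraries and 26.8 to 54.3% in Ler libraries. Reads counted at TOR itself (AT1G50030) were higher in tor libraries, at 169 to 185 RPM with glucose and 223 to 224 RPM without, against 95.4 to 97.0 RPM and 110 to 120 RPM in Col-0. Whether all of these reads come from the TOR transcript, and whether the RNAi lowered it, was not tested. Here tor means the libraries labelled so. HXK1 (AT4G29130) stood at 13.7 to 18.7 RPM in gin2 libraries, below the 21.7 to 66.2 RPM of Ler libraries. Of 8 markers of green, epidermal and root tissue, all 8 were listed in each experiment.

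All 10 genes are listed in the ethylene experiment, 8 in the glucose-TOR experiment (not SESA1 or CRB) and 6 under both genotypes of the glucose-HXK1 experiment (SESA3, SESA5, CRA1, CRC, OLEO1 and OLEO2). SESA1, SESA2, SESA4 and CRB are listed under gin2 but not under Ler, on values that match the read step of the same-numbered Ler library (24 of 24 values, and 2 of 24 their own step), and were not used there. SESA1 to SESA4 lie next to each other in the genome, and how reads that match several of these related genes were counted is not given in the sources used here, so their split is uncertain.

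**Figure D1:**
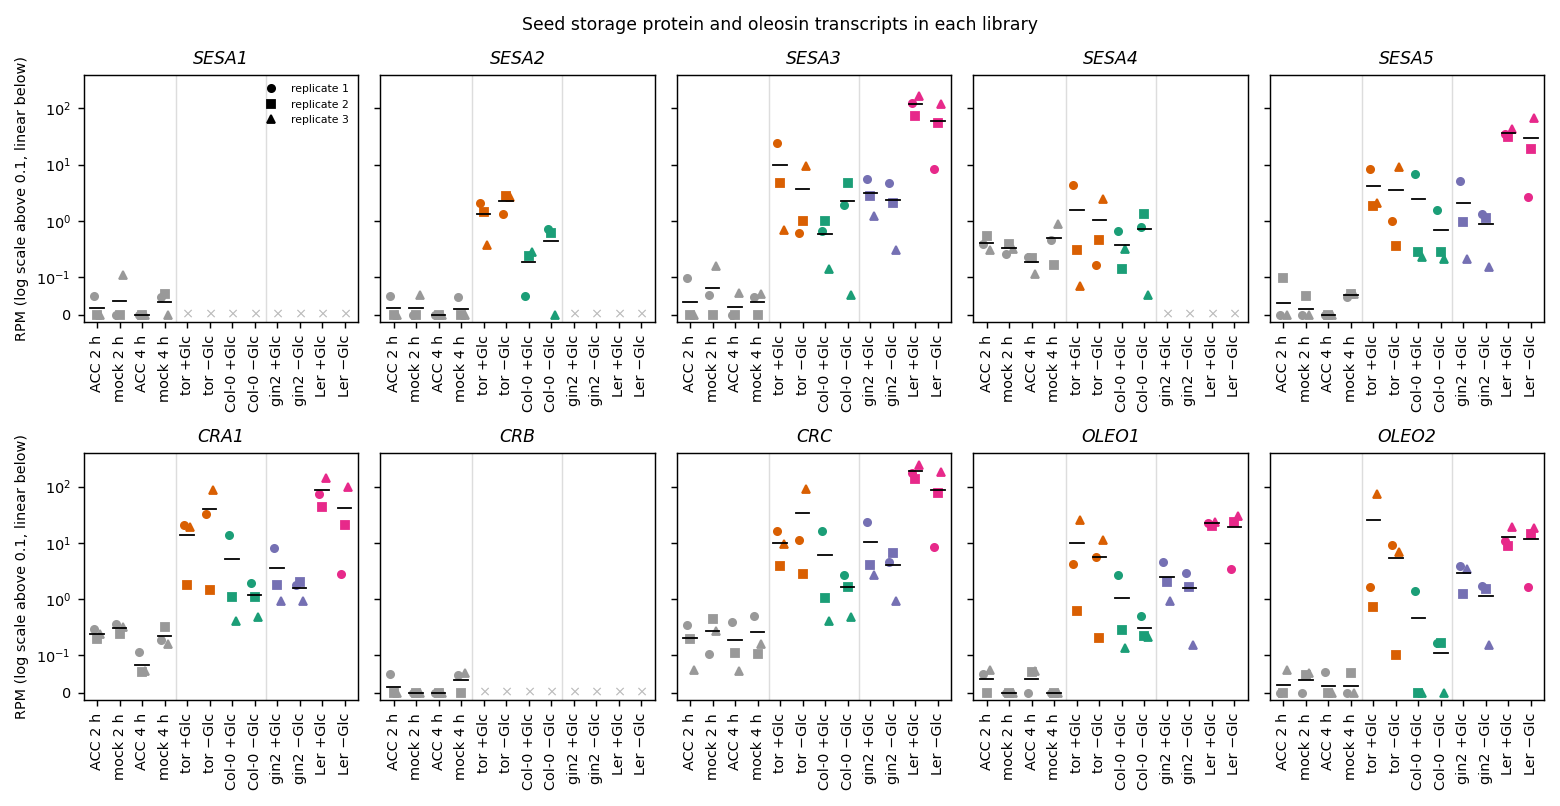
RPM of each of the 10 genes in every library (points, shaped by replicate number) with the mean of the 3 libraries of a group (bar), on an axis that is logarithmic above 0.1 RPM and linear below. A grey cross marks a group with no value used; the ethylene libraries lie below 0.868 RPM or at it for all 10 genes, and the 6 genes used in Ler reach 18.9 to 248 RPM there.

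In seedlings grown with glucose, the ethylene experiment, these transcripts were close to absent, with or without ACC. None of the 10 genes reached the filter of 1 RPM in 3 libraries, so none was tested there. SESA4 was the only one above 0.6 RPM in any library, at 0.396, 0.530 and 0.305 RPM after 2 h of ACC and 0.262, 0.391 and 0.322 RPM after 2 h of mock treatment. After 4 h it stood at 0.226, 0.222 and 0.115 RPM with ACC and 0.466, 0.162 and 0.868 RPM with mock treatment. The groups overlapped at both times, and the highest library was a mock library.

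CRC and CRA1 were the other genes seen in all 12 ethylene libraries, at 0.0574 to 0.512 RPM and 0.0555 to 0.367 RPM. CRA1, an abundant cruciferin of the mature seed, had 0.113, 0.0555 and 0.0574 RPM after 4 h of ACC and 0.186, 0.324 and 0.163 RPM after 4 h of mock treatment. Its 3 ACC libraries lay below the 3 mock libraries at 4 h, on 4 reads against 13 reads. Each of these ACC values is under the RPM of 3 reads in its library (0.167 to 0.172 RPM), a level at which libraries cannot be ranked. The other 7 genes (SESA1, SESA2, SESA3, SESA5, CRB, OLEO1 and OLEO2) had 3 to 9 reads each over the 12 libraries together and were at 0 in 6 to 9 of them. Over all 10 genes the reads came to 60 after 2 h of ACC and 63 after 2 h of mock treatment, and to 28 after 4 h of ACC and 69 after 4 h of mock treatment. With no filter, limma called 0 of 10 genes for ACC at 2 h (lowest adjusted p = 0.436, with 0 at an unadjusted p below 0.05) and 0 of 10 at 4 h (lowest adjusted p = 0.0851, with 1 at an unadjusted p below 0.05). Of the genes that passed the filter, 9.25% were called for ACC at 2 h and 19.4% at 4 h (2047 higher and 1726 lower, and 1476 and 1977 with median-of-ratios scaling), and edgeR and DESeq2 were run on those genes only.

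In seedlings grown without glucose, the same genes ranged widely between libraries of 1 group. The summed RPM of the 6 genes used in both glucose experiments was 75.9, 13.5 and 132 in tor +Glc (replicates 1, 2 and 3), 60.2, 5.88 and 213 in tor −Glc, 42.1, 3.65 and 1.32 in Col-0 +Glc, and 8.81, 8.20 and 1.43 in Col-0 −Glc. It was 51.2, 12.8 and 9.41 in gin2 +Glc, 17.1, 15.1 and 2.62 in gin2 −Glc, 441, 315 and 643 in Ler +Glc, and 27.3, 209 and 515 in Ler −Glc. Sums above 40 RPM occurred in the tor libraries numbered 1 and 3, the first gin2 +Glc library, the first Col-0 +Glc library and 5 of the 6 Ler libraries, and the first Ler −Glc library stood below the other Ler libraries.

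The spread within groups was far above that of most genes. The residual SD on the log2 scale ran from 0.427 (SESA2) to 1.84 (CRA1) for the 8 genes in the glucose-TOR experiment, where the median of all 19336 tested genes was 0.175. In the glucose-HXK1 experiment it ran from 0.953 (OLEO2) to 1.44 (CRC) for 6 genes, against a median of 0.281 over 17352 genes. Limma shrinks such spreads toward those of other genes, for CRC in the glucose-HXK1 experiment to 0.805, and the adjusted p values below rest on the shrunken values.

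Among the 2S albumins, small sulphur-rich storage proteins, SESA3 gave 24.1, 4.72 and 0.677 RPM in tor +Glc and 0.614, 1.01 and 9.63 RPM in tor −Glc. In Col-0 it gave 0.650, 0.982 and 0.137 RPM with glucose and 1.94, 4.74 and 0.0529 RPM without. The groups overlapped in each comparison. SESA5 showed the same overlap, at 8.53, 1.81 and 2.11 RPM in tor +Glc, 1.00, 0.352 and 9.18 RPM in tor −Glc, 6.90, 0.281 and 0.228 RPM in Col-0 +Glc and 1.55, 0.279 and 0.212 RPM in Col-0 −Glc. SESA4 stayed at or below 4.40 RPM in the 12 libraries, with groups that overlapped as well.

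SESA2 stayed at or below 2.81 RPM in the 12 libraries. It had 2.12, 1.45 and 0.376 RPM in tor +Glc and 0.050, 0.234 and 0.274 RPM in Col-0 +Glc, from 69 reads against 12 reads. Without glucose it had 1.34, 2.81 and 2.69 RPM in tor and 0.720, 0.614 and 0 RPM in Col-0, from 128 reads against 24 reads. Each tor library stood above each Col-0 library in both conditions, as did 39.8% of all tested genes with glucose and 46.7% without. SESA2 reached 1 RPM in 5 libraries, all of them tor, so it passed the filter through the group in which it was higher.

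The cruciferins CRA1 and CRC, subunits of the main seed globulin, were highest in the third tor −Glc library among the 12 libraries of this experiment. CRA1 had 21.2, 1.75 and 19.1 RPM in tor +Glc, 32.2, 1.46 and 86.7 RPM in tor −Glc, 13.8, 1.08 and 0.411 RPM in Col-0 +Glc and 1.94, 1.12 and 0.476 RPM in Col-0 −Glc. CRC had 16.1, 3.87 and 9.40 RPM in tor +Glc, 11.4, 2.76 and 89.6 RPM in tor −Glc, 16.6, 1.03 and 0.411 RPM in Col-0 +Glc and 2.71, 1.67 and 0.476 RPM in Col-0 −Glc. For CRC all 3 tor libraries lay above all 3 Col-0 libraries without glucose and the groups overlapped with it. For CRA1 the second tor library lay within the Col-0 range in both conditions.

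In this experiment the oleosins were highest in the third tor +Glc library. OLEO1, the main oil body protein of the seed, gave 4.29, 0.605 and 25.6 RPM in tor +Glc, 5.58, 0.201 and 11.3 RPM in tor −Glc, 2.70, 0.281 and 0.137 RPM in Col-0 +Glc and 0.499, 0.223 and 0.212 RPM in Col-0 −Glc. OLEO2 gave 1.64, 0.726 and 75.0 RPM in tor +Glc, 9.38, 0.101 and 6.89 RPM in tor −Glc, 1.40, 0 and 0 RPM in Col-0 +Glc and 0.166, 0.167 and 0 RPM in Col-0 −Glc. Libraries 1 and 3 of tor were above all Col-0 libraries of the same condition for both genes, and library 2 without glucose was below the highest Col-0 library for both.

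SESA2, CRA1 and CRC were higher in tor than in Col-0 without glucose, a share of the 8 genes close to that of all genes. Without glucose 3 of 8 genes were higher in tor, where 40.3% of all tested genes were called higher and 55.4% called in either direction. These were SESA2 (log2 difference 1.19 ± 0.295, adjusted p = 0.00418), CRA1 (3.20 ± 1.19, adjusted p = 0.0356) and CRC (2.73 ± 1.05, adjusted p = 0.0416), and the median difference of all genes was 0.241. SESA2 passed the filter only through tor libraries, so its calls in both conditions carry that limit. With glucose 1 of 8 was called, SESA2 at 0.89 ± 0.295 (adjusted p = 0.0187), where 37.3% of all genes were called higher, 61.4% were called in either direction and the median difference was 0.138.

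The direction of the calls over all genes depended on the scaling. For tor over Col-0 without glucose 7802 genes were higher and 2902 lower, and with median-of-ratios scaling 4825 were higher and 5257 lower (median -0.002). With glucose the counts were 7214 higher and 4667 lower, and 6018 and 6251 with that scaling (median -0.003).

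The 2 cruciferin calls rested on few libraries. Without the third tor −Glc library the differences were 2.11 for CRA1 (adjusted p = 0.161) and 1.48 for CRC (adjusted p = 0.200), and each also lost its call without the first tor −Glc library or any 1 Col-0 −Glc library. The CRC call also ended with median-of-ratios scaling (adjusted p = 0.0572). SESA2 kept its call without glucose in each alternative run, and with glucose it lost it on leaving out the first tor library (adjusted p = 0.0802), the second (0.0577) or the first Col-0 library (0.0625). OLEO1 (1.82 ± 0.920 without glucose and 1.80 ± 0.920 with it) and OLEO2 (2.02 ± 1.15 and 2.39 ± 1.15) did not pass the test in either condition, with adjusted p of 0.0868 to 0.153.

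Glucose for 2 h changed none of these genes detectably in either genotype of this experiment. Limma called 0 of 8 genes in tor, where 34.7% of all tested genes were called, and 0 of 8 in Col-0, where 56.3% were. No gene had an unadjusted p below 0.05 in either comparison, and edgeR and DESeq2 also called 0 of 8 in each. In Col-0 6909 genes were higher and 3974 lower with glucose, and with median-of-ratios scaling 5587 were higher and 5876 lower. The log2 changes of the 8 genes lay between -0.84 (CRA1) and 0.94 (SESA3) in tor and between -0.75 (SESA3) and 0.75 (CRA1) in Col-0, with SE of 0.295 to 1.19. The test of whether the glucose change differed between tor and Col-0 also called 0 of 8, against 17.4% of all genes. Counted at an unadjusted p below 0.05 it also gave 0, as did edgeR and DESeq2. Of all genes that difference was higher for 1200 and lower for 2161, and for 2049 and 1966 with median-of-ratios scaling.

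**Figure D2:**
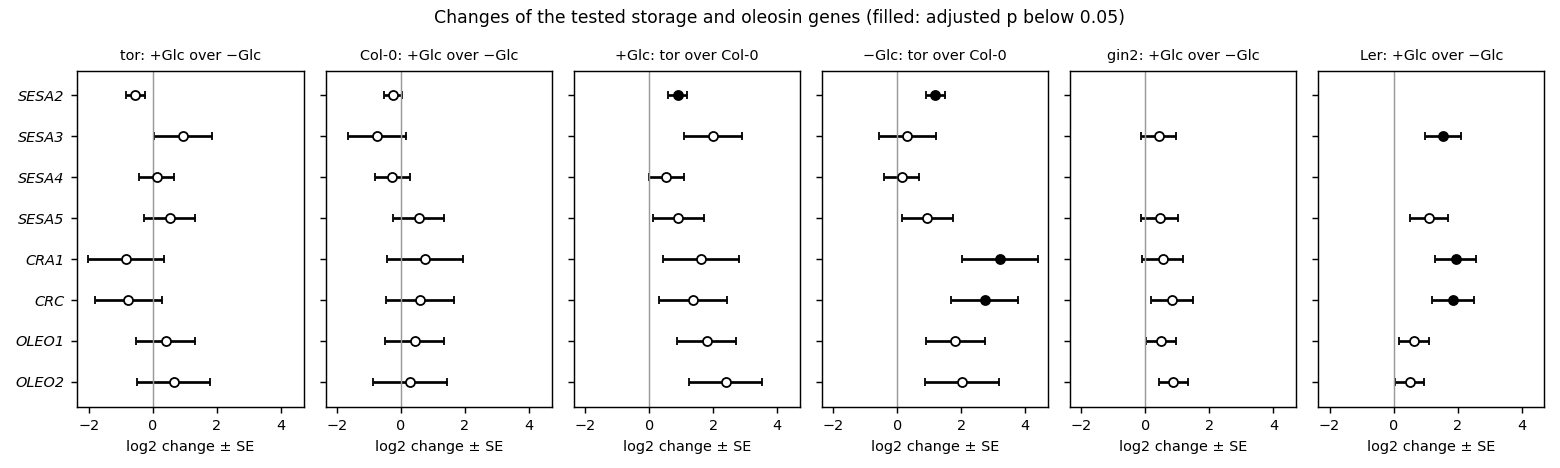
Log2 change ± SE of the tested genes in 6 comparisons, on the log2(RPM + 1) scale, with filled points for adjusted p below 0.05 in limma. SESA2, CRA1 and CRC are filled for tor over Col-0 without glucose, SESA2 with glucose, and SESA3, CRA1 and CRC for glucose in Ler; the SE of most genes is close to 1 in the glucose-TOR experiment.

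In Ler +Glc the 6 genes summed to 315 to 643 RPM, and in Ler −Glc to 27.3 to 515 RPM. SESA3 gave 126, 72.9 and 167 RPM in Ler +Glc and 8.41, 55.0 and 118 RPM in Ler −Glc. CRA1 gave 74.4, 43.2 and 143 RPM in Ler +Glc and 2.78, 21.1 and 100.5 RPM in Ler −Glc. CRC gave 172, 139 and 248 RPM in Ler +Glc and 8.41, 75.8 and 179 RPM in Ler −Glc. For each of these genes the third −Glc library lay within the +Glc range, so the groups overlapped, and the first −Glc library was the lowest of the 6.

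SESA5 gave 35.5, 30.9 and 42.6 RPM in Ler +Glc and 2.66, 19.1 and 68.5 RPM in Ler −Glc. OLEO1 gave 23.0, 20.3 and 23.6 RPM in Ler +Glc and 3.42, 23.6 and 30.2 RPM in Ler −Glc. OLEO2 gave 10.6, 8.92 and 18.9 RPM in Ler +Glc and 1.64, 14.6 and 18.4 RPM in Ler −Glc. The +Glc libraries kept close together for SESA5 and OLEO1, and the spread lay in the −Glc libraries.

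By limma 3 of 6 genes were higher in Ler with glucose, where 17.4% of all tested genes were called higher and 28.7% in either direction (3019 higher and 1967 lower, and 4389 and 4415 with median-of-ratios scaling). The log2 changes were 1.94 ± 0.644 for CRA1 (adjusted p = 0.0232), 1.85 ± 0.657 for CRC (adjusted p = 0.0344) and 1.55 ± 0.555 for SESA3 (adjusted p = 0.0358). SESA5 (1.104 ± 0.584, adjusted p = 0.165), OLEO1 (0.63 ± 0.470, adjusted p = 0.343) and OLEO2 (0.50 ± 0.460, adjusted p = 0.452) did not pass. The call ended for all 3 genes with median-of-ratios scaling, with RPM recomputed over nuclear genes, with edgeR and with DESeq2, and on leaving out the first +Glc library or the first or second −Glc library.

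The first Ler −Glc library carried much of this change. Without it the log2 changes were 0.73 for CRA1, 0.63 for CRC and 0.51 for SESA3, and without the third −Glc library they were 3.10, 2.76 and 2.34, with 6 of 6 genes called. The share of RPM on unlisted genes was 41.2, 28.6 and 54.0% in Ler +Glc and 26.8, 32.6 and 54.3% in Ler −Glc, highest in the libraries numbered 3, and its part in the result was not tested. With RPM over nuclear genes the changes were 2.05, 1.94 and 1.64, with adjusted p of 0.0932 to 0.115.

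In gin2 the same 6 genes were low in most libraries. CRC gave 23.9, 4.06 and 2.69 RPM in gin2 +Glc and 4.58, 6.70 and 0.924 RPM in gin2 −Glc. CRA1 gave 8.19, 1.81 and 0.919 RPM in gin2 +Glc and 1.81, 1.99 and 0.924 RPM in gin2 −Glc. SESA3 gave 5.48, 2.76 and 1.20 RPM in gin2 +Glc and 4.64, 2.07 and 0.308 RPM in gin2 −Glc. The first +Glc library was the highest of the 6 for each of these genes, and the groups overlapped.

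SESA5 gave 5.10, 0.943 and 0.212 RPM in gin2 +Glc and 1.33, 1.12 and 0.154 RPM in gin2 −Glc. OLEO1 gave 4.63, 2.03 and 0.919 RPM in gin2 +Glc and 2.96, 1.67 and 0.154 RPM in gin2 −Glc. OLEO2 gave 3.94, 1.23 and 3.47 RPM in gin2 +Glc and 1.75, 1.51 and 0.154 RPM in gin2 −Glc. The third −Glc library held 1 read of each of these 3 genes, under its value of 3 reads (0.462 RPM), and cannot be ranked against the others.

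Limma called 0 of 6 genes for glucose in gin2, where 27.5% of all tested genes were called (3252 higher and 1514 lower, and 3946 and 4113 with median-of-ratios scaling), and 0 of 6 had an unadjusted p below 0.05. The largest change was 0.87 ± 0.460 for OLEO2 (adjusted p = 0.167), which passed in a fit to the gin2 libraries alone (adjusted p = 0.0304). The difference in glucose change, gin2 minus Ler, lay between -1.40 ± 0.911 (CRA1) and 0.37 ± 0.650 (OLEO2), and limma called 0 of 6 genes, against 0.294% of all genes, with 0 at an unadjusted p below 0.05. The response of these genes to glucose was thus not shown to differ between gin2 and Ler, and edgeR and DESeq2 were not run with gin2. Without the third Ler −Glc library CRA1 passed, at -2.56 (adjusted p = 0.0230).

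The contrast by which the genes were picked is described next. With glucose, all 3 gin2 libraries lay below all 3 Ler libraries for 6 of 6 genes, as for 2.76% of all tested genes. Without glucose this held for 5 of 6, against 1.99% of all genes, and OLEO2 overlapped through the first Ler −Glc library. CRC averaged 10.2 ± 11.9 RPM in gin2 +Glc and 186 ± 55.7 RPM in Ler +Glc, and 4.07 ± 2.92 RPM in gin2 −Glc and 87.7 ± 85.8 RPM in Ler −Glc (SD, n = 3 each).

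The log2 differences, gin2 minus Ler, with glucose were -4.95 for SESA3, -4.56 for CRC, -4.42 for CRA1, -3.93 for SESA5, -2.86 for OLEO1 and -1.85 for OLEO2, where the median of all genes was 0.617. Without glucose they were -3.81 for SESA3, -3.54 for CRC, -3.27 for SESA5, -3.01 for CRA1, -2.71 for OLEO1 and -2.22 for OLEO2, beside a median of 0.555. The order of the genes changed with the libraries used: without the third Ler −Glc library the CRA1 difference without glucose was -1.86, and without the first it was -4.23. With median-of-ratios scaling, where the medians of all genes were 0.024 and 0.004, all 6 genes lay below Ler in every gin2 library in both conditions.

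The share that each gene took of the 6-gene sum differed between libraries. In Ler libraries SESA3 made up 23.0 to 30.8% of the sum, CRC 30.8 to 44.2%, CRA1 10.1 to 22.3%, OLEO1 3.67 to 12.5% and OLEO2 2.40 to 7.00%. In tor +Glc, SESA3 made up 31.7, 35.0 and 0.510%, and OLEO2 made up 2.16, 5.38 and 56.8%. The 6-gene sum was thus mainly oleosin reads in the third tor +Glc library, at 76.3% for OLEO1 and OLEO2 together. It was mainly CRA1 reads in the first tor −Glc library, at 53.4%, and mainly SESA3 reads in the second Col-0 −Glc library, at 57.8%. These are shares of reads, not scaled by transcript length. The third gin2 +Glc library had 36.8% OLEO2 in a sum of 9.41 RPM.

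**Figure D3:**
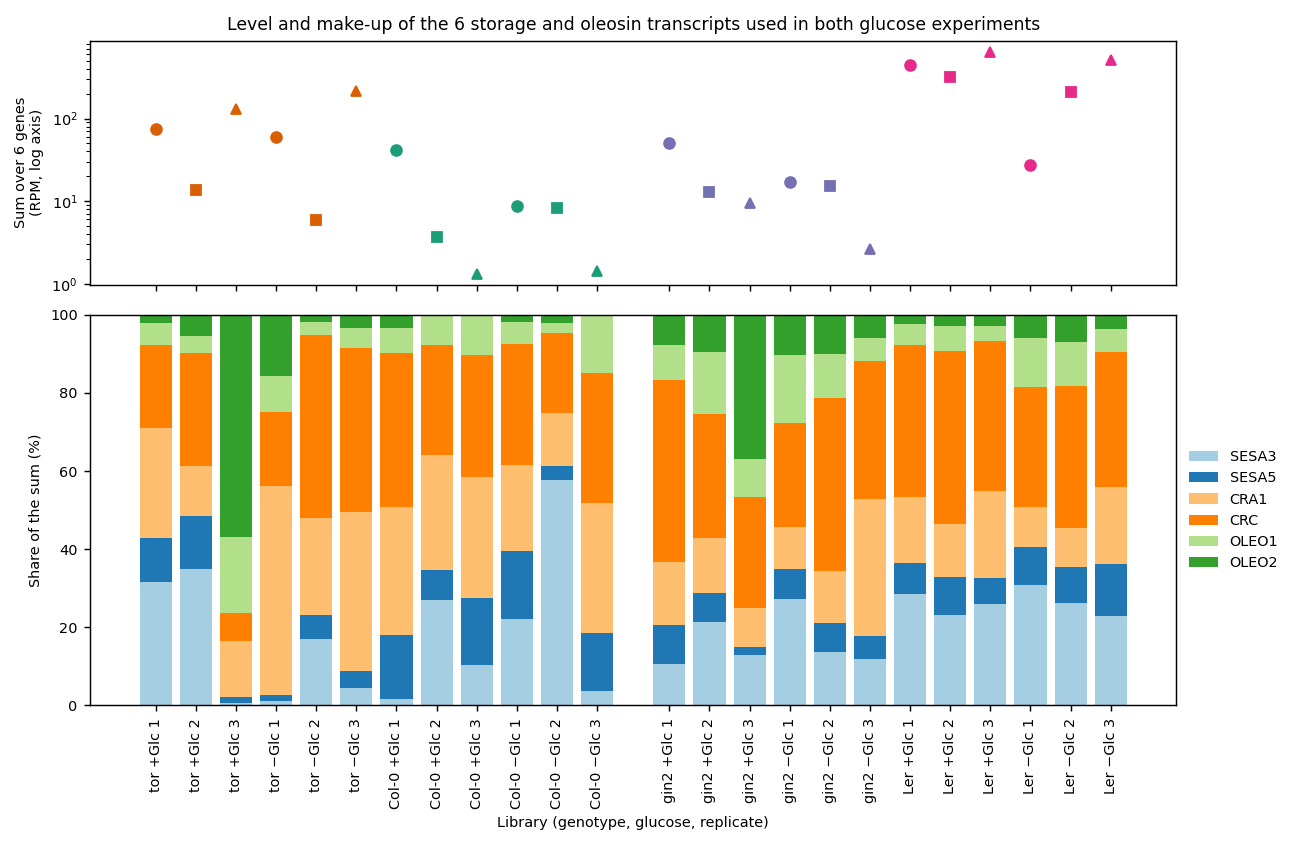
Upper panel, summed RPM of the 6 genes used in both glucose experiments in each library on a logarithmic axis; lower panel, the share (%) each gene takes of that sum. CRC takes 30.8 to 44.2% in the Ler libraries at sums of 27.3 to 643 RPM, and OLEO2 takes 56.8% of the sum in the third tor +Glc library.

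After group means were removed, the 6 genes moved together across the 12 glucose-HXK1 libraries, with r of 0.82 to 0.969 over 15 pairs (median 0.926). Across the 12 glucose-TOR libraries the same 15 pairs ran from -0.36 to 0.951 (median 0.601), and the lowest was SESA3 with OLEO2. Over all 28 pairs of the 8 genes there, the lowest was SESA2 with OLEO2, at -0.718. These correlations describe libraries that share depth and preparation across genes, and carry no test.

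The genes whose pattern was most like that of the storage and oleosin genes were ranked by the mean correlation with their average over the 12 libraries of each glucose experiment, among 14447 genes. They were LCR67 (AT1G75830, also PDF1.1, a plant defensin, mean r = 0.895), AT1G54870 (0.843), AT2G28490 (0.827), RAB18 (AT5G66400, a dehydrin, 0.803) and AT1G68250 (0.785). In the glucose-HXK1 experiment the average holds the difference between gin2 and Ler by which the genes were picked, so the ranking is a description only. After group means were removed, r was 0.498 to 0.788 in the glucose-TOR experiment and 0.889 to 0.946 in the glucose-HXK1 experiment. RAB18 and AT2G28490 also stand in the lists of LEA genes and of other storage genes. RAB18, as an example, had a median of 6.62 RPM in tor +Glc (1.39 to 202 RPM) and 22.4 RPM in tor −Glc (0.302 to 29.5 RPM). In Col-0 it stood at 0.327 to 8.40 RPM with glucose and 1.48 to 2.175 RPM without, so tor and Col-0 overlapped in both conditions. In Ler +Glc it stood at 65.4 to 109 RPM.

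The sums of other late seed genes also differed between libraries of 1 group. The summed RPM of the late embryogenesis abundant (LEA) genes, which protect the drying embryo, was 25.0, 11.1 and 1083 in tor +Glc, 111, 8.49 and 149 in tor −Glc, 49.1, 4.68 and 4.20 in Col-0 +Glc and 16.9, 13.2 and 9.73 in Col-0 −Glc, over 15 of 19 genes listed. The third tor +Glc library held 75.6 RPM of EM1 and 72.3 RPM of EM6, both group 1 LEA genes, where the other tor +Glc libraries held at most 0.181 RPM and 2.01 RPM. Over 16 of 19 LEA genes the sum was 81.4, 41.7 and 91.1 RPM in gin2 +Glc, 60.9, 26.2 and 27.7 RPM in gin2 −Glc, 179.9, 123 and 328 RPM in Ler +Glc and 16.0, 159 and 323 RPM in Ler −Glc. As for the storage genes, the first Ler −Glc library was the lowest of the Ler libraries. In the ethylene experiment all 19 LEA genes stayed below 1 RPM.

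**Figure D4:**
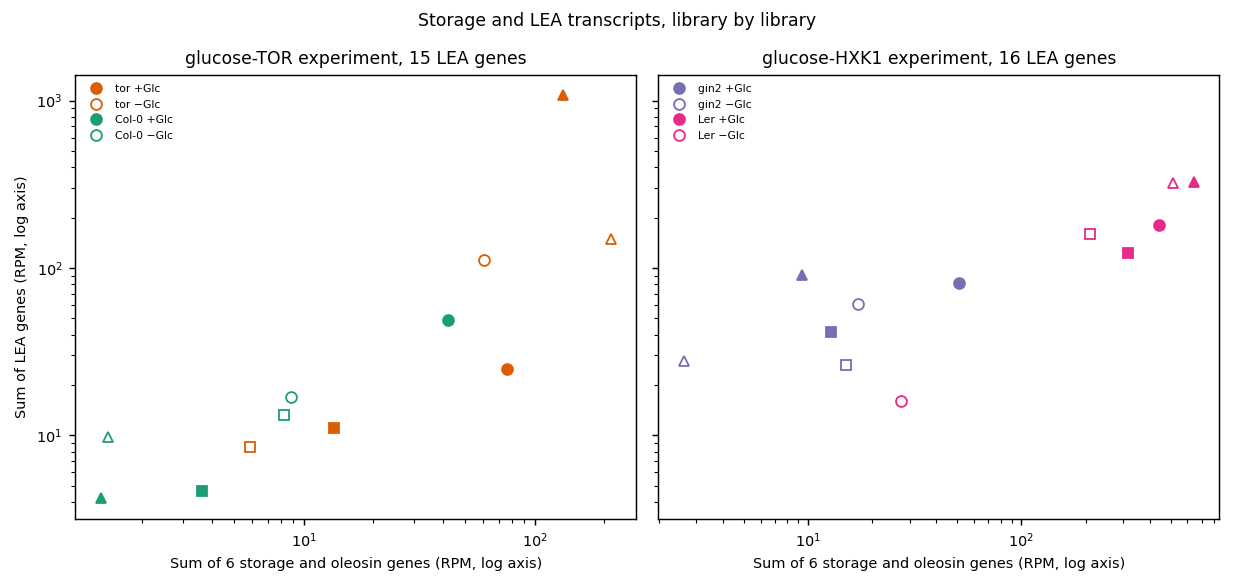
Summed RPM of the 6 storage and oleosin genes (x axis) and of the listed LEA genes (y axis) in each library, both axes logarithmic, with filled symbols for +Glc, open ones for −Glc and shapes by replicate number (circle 1, square 2, triangle 3). The third tor +Glc library lies at 132 and 1083 RPM, above the other tor libraries on the LEA axis, and the first Ler −Glc library lies at 27.3 and 16.0 RPM, below the other Ler libraries on both.

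Few LEA genes passed a test. For tor over Col-0 without glucose 2 of 15 were called higher and 0 lower (median 1.19, all genes 0.241), where 40.3% of all genes were called higher. These were M17 at 3.08 ± 1.12 (adjusted p = 0.0321) and M10 at 1.05 ± 0.264 (adjusted p = 0.00456). With glucose M10 was called at 1.30 ± 0.264 (adjusted p = 0.000850), 1 of 15 (median 1.66, all genes 0.138), where 37.3% of all genes were called higher. M10 reached 1 RPM in tor libraries only, so it passed the filter through them. Glucose called EM6 alone of 16 in gin2, at 1.14 ± 0.409 (adjusted p = 0.0365), and EM1 alone of 16 in Ler, at 1.22 ± 0.457 (adjusted p = 0.0443), where 27.5% of all genes were called in gin2 and 28.7% in Ler. Both calls ended with median-of-ratios scaling (adjusted p = 0.202 for EM6 and 0.181 for EM1). In Col-0, where 56.3% of all genes were called, glucose called XERO1 alone of 15, a dehydrin that was lower, at -1.99 ± 0.794 (adjusted p = 0.0475).

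Other storage and oil body genes, 11 in the list, were listed for 6 in the glucose-TOR experiment. TIP3;2, a water channel of the protein storage vacuole, was higher in tor at 2.15 ± 0.652 with glucose (adjusted p = 0.0116) and 1.67 ± 0.652 without (adjusted p = 0.0445). TIP3;1, its close relative, was higher at 1.88 ± 0.746 without glucose (adjusted p = 0.0469), and it reached 1 RPM in tor libraries only, so it passed the filter through them. Without glucose both calls ended with median-of-ratios scaling (adjusted p = 0.0915 for TIP3;2 and 0.0558 for TIP3;1). PAP85, a vicilin-like storage globulin, was lower in tor without glucose. It had 0.614, 0.452 and 2.58 RPM in tor and 9.31, 18.1 and 14.2 RPM in Col-0. The difference was -2.83 ± 0.840 on the log2 scale, with an adjusted p of 0.0119. Each tor library thus lay below each Col-0 library for PAP85, and how many of all genes do so was not counted. Of the 6 genes 2 were called higher and 1 lower without glucose, where 55.4% of all tested genes were called in either direction. With glucose 1 was called higher and 0 lower, where 61.4% of all genes were called in either direction.

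In the ethylene experiment TIP3;2 was the 1 gene of these 11 that passed the filter, and it was higher with ACC. It reached 1 RPM in the 6 ACC libraries and in no mock library, so it passed through the group in which it was higher. After 2 h it had 1.29, 1.40 and 1.04 RPM with ACC and 0.157, 0.293 and 0.375 RPM with mock treatment, a log2 change of 0.81 ± 0.131 (adjusted p = 0.00118). After 4 h it had 1.19, 1.11 and 1.38 RPM with ACC and 0.047, 0.054 and 0.217 RPM with mock treatment, a log2 change of 1.01 ± 0.131 (adjusted p = 0.000172). The groups did not overlap at either time, and how many of all genes separate in this way was not counted. The share of tested genes with a limma adjusted p below 0.05 was 9.25% after 2 h of ACC and 19.4% after 4 h.

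PAP85 was also lower with glucose, at -2.31 ± 0.840 in Col-0 (adjusted p = 0.0316) and -1.68 ± 0.370 in gin2 (adjusted p = 0.000996). Of all tested genes 56.3% were called for glucose in Col-0 and 27.5% in gin2. For glucose in tor and in Ler, 0 genes of this list were called. For PAP85 the glucose change in tor minus that in Col-0 was 3.79 ± 1.19 (adjusted p = 0.0438), where 17.4% of all genes were called. Its tor +Glc libraries held 3.87, 0.484 and 24.1 RPM. In gin2 it had 7.03, 1.89 and 2.26 RPM with glucose and 12.7, 12.0 and 12.9 RPM without.

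The early seed regulators LEC1, L1L, LEC2 and FUS3, and the bZIP factors bZIP53 and bZIP67, have no values in the glucose experiments, and each was below 1 RPM in all ethylene libraries. Of 7 regulators tested in the glucose-TOR experiment, 4 were higher in tor with glucose, where 37.3% of all genes were. These were EEL at 1.42 ± 0.194 (adjusted p = 3.68e-05), ABI5 at 1.07 ± 0.429 (adjusted p = 0.0445), bZIP10 at 1.02 ± 0.201 (adjusted p = 0.000663) and bZIP25 at 0.69 ± 0.134 (adjusted p = 0.000585). All 4 are bZIP factors, none was lower, and the ABI5 call ended with median-of-ratios scaling (adjusted p = 0.0899). Without glucose EEL (1.03 ± 0.194, adjusted p = 0.000626) and bZIP10 (1.26 ± 0.201, adjusted p = 0.000175) were higher, 2 of 7, where 40.3% of all genes were. With glucose in Col-0, where 56.3% of all genes were called, bZIP25 (-0.62 ± 0.134, adjusted p = 0.00156) and EEL (-0.55 ± 0.194, adjusted p = 0.0277) were lower and WRI1 was higher, 3 of 7. WRI1, an activator of oil synthesis, was higher with glucose in Col-0 (0.86 ± 0.187, adjusted p = 0.00155), gin2 (0.70 ± 0.215, adjusted p = 0.0152) and Ler (0.63 ± 0.215, adjusted p = 0.0276). With ACC, EEL was the 1 regulator called of 5 tested, higher by 0.65 ± 0.180 at 2 h (adjusted p = 0.0390) and 0.99 ± 0.180 at 4 h (adjusted p = 0.00214), where 9.25% of all genes were called at 2 h and 19.4% at 4 h.

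All 4 repressors of the seed programme were listed in each experiment. VAL2 was higher without glucose in tor than in Col-0 (0.39 ± 0.0920, adjusted p = 0.00317) and higher with glucose in tor (0.27 ± 0.0920, adjusted p = 0.0361) and in Col-0 (0.50 ± 0.0920, adjusted p = 0.000473). VAL1 was higher in tor both with glucose (0.32 ± 0.106, adjusted p = 0.0205) and without (0.32 ± 0.106, adjusted p = 0.0199). For tor over Col-0, 2 of 4 repressors were thus called higher without glucose and 1 with it, where 40.3% and 37.3% of all genes were. For glucose 1 of 4 was called in Col-0 and 1 in tor, where 56.3% and 34.7% of all genes were called. After 4 h of ACC 1 of 4 was lower and 0 higher, where 19.4% of all genes were called. With median-of-ratios scaling 0 of 4 repressors were called between tor and Col-0 in either condition, with VAL1 at an adjusted p of 0.0623 with glucose and 0.567 without, and VAL2 at 0.203 without.

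Genes that process storage proteins or consume oil gave the following counts. Of 8 processing and sorting genes, 6 were higher in tor without glucose, where 40.3% of all genes were called higher. With glucose 5 were higher, where 37.3% of all genes were, and 1 was lower. GVPE, a vacuolar processing enzyme, was higher in tor than in Col-0, at 1.36 ± 0.0790 with glucose (adjusted p = 4.60e-08) and 0.73 ± 0.0790 without (adjusted p = 8.09e-06). SDP1, the lipase that opens the oil store, was lower with glucose in tor (-1.35 ± 0.0990, adjusted p = 8.46e-07), Col-0 (-2.18 ± 0.0990, adjusted p = 2.96e-09), gin2 (-1.19 ± 0.246, adjusted p = 0.000503) and Ler (-1.64 ± 0.246, adjusted p = 8.16e-06). Of 14 oil breakdown genes, glucose called 3 higher and 8 lower in Col-0 and 1 higher and 4 lower in tor. It called 0 higher and 3 lower in gin2, and 0 higher and 2 lower in Ler. The shares of all genes called for glucose were 56.3% in Col-0, 34.7% in tor, 27.5% in gin2 and 28.7% in Ler. For tor over Col-0, 9 of the 14 were higher and 1 lower without glucose, where 40.3% of all genes were called higher. With glucose 10 were higher and 0 lower, where 37.3% of all genes were called higher. With median-of-ratios scaling the oil breakdown counts were 6 higher and 3 lower without glucose and 9 and 0 with it, and those of the processing genes were 4 and 0 without glucose and 5 and 2 with it.

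Markers of remaining seed tissue differed between tor and Col-0 in both directions without glucose. Of 4 tested, 2 were called higher in tor and 1 lower, where 40.3% of all genes were called higher and 55.4% in either direction. With glucose 0 were higher and 1 lower (61.4% of all genes called). Glucose called 0 higher and 2 lower in Col-0 (56.3%), and the same in tor (34.7%). For the glucose change in tor minus that in Col-0, 0 were higher and 1 lower (17.4%). Of 5 such markers 4 were listed in the glucose-TOR experiment, with sums of 4.56 to 9.19 RPM in tor +Glc, 11.0 to 14.9 RPM in tor −Glc, 8.70 to 10.8 RPM in Col-0 +Glc and 13.7 to 20.1 RPM in Col-0 −Glc. Without glucose DOG1, a dormancy gene, was higher in tor (1.32 ± 0.191, adjusted p = 7.98e-05), as was the seed coat laccase TT10 (0.54 ± 0.169, adjusted p = 0.0160, and 0.0976 with median-of-ratios scaling), while EXPA2, an expansin of the germinating endosperm, was lower (-1.66 ± 0.229, adjusted p = 5.35e-05). DOG1 reached 1 RPM in tor −Glc libraries only, so it passed the filter through them. It was at 0 in 1 tor +Glc library and 2 Col-0 +Glc libraries, and BAN, a seed coat marker, has no value in either glucose experiment. In the glucose-HXK1 experiment the 2 listed markers, EPR1 and EXPA2, summed to 5.64 to 10.1 RPM in gin2 +Glc, 1.69 to 7.84 RPM in gin2 −Glc, 6.38 to 18.5 RPM in Ler +Glc and 4.74 to 11.7 RPM in Ler −Glc.

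The 8 whole-seedling markers summed to 8654 to 15329 RPM in tor libraries and 19406 to 23986 RPM in Col-0 libraries of the glucose-TOR experiment. Single markers went both ways. Without glucose 3 of 8 were called higher in tor and 2 lower, where 40.3% of all genes were called higher and 55.4% in either direction. With glucose 1 was higher and 5 lower, beside 37.3% and 61.4% of all genes. Median-of-ratios scaling gave 0 higher and 3 lower without glucose, and 0 and 5 with it. In the Ler libraries numbered 3, where storage transcripts were highest, the markers summed to 9021 RPM with glucose and 10197 RPM without, against 14315 to 15071 RPM in the other 4 Ler libraries. All genes used there held only 459406 RPM with glucose and 456635 RPM without in the libraries numbered 3, against 587458 to 731328 RPM in the other 4. The marker sums are not scaled for this, so they cannot be read as a loss of seedling transcripts. The part of seed remnants, of developmental stage and of the seedling make-up in the levels of the 10 genes was not tested.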

How the data were processed

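TopHat and HTSeq are the tools named per the submitters' processing notes. Which build and versions were used, whether strand was considered and what was done with reads matching several genes are not given in the sources used here. Values in the deposited table are RPM, reads per 1e+06 reads, which the authors gave for each gene and library in 1 table. Gene symbols came from a RefSeq TAIR10.1 table by gene code, and no coordinates or sequences are printed.

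RPM values are whole multiples of the value of 1 read (tolerance 0.02 reads), which gave whole reads per gene. In the ethylene, tor, Col-0 and Ler libraries 100% of used values were whole. Of 1035 genes listed for gin2 and not for Ler, 195 lay on the step of the same-numbered Ler library and 840 on their own. SESA1, SESA2, SESA4 and CRB were among the 195 and were left out. A value of 3 reads is 0.137 to 0.462 RPM per library, a limit that covers counting error only.

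In each experiment a gene had to reach 1 RPM in 3 libraries or more to be tested. Log2(RPM + 1) was then fitted over all 12 libraries by limma 3.58.1 (R 4.3.3) with its trend option, and p values were adjusted by Benjamini-Hochberg over all genes tested, with a threshold of 0.05. The p values rest on the spread between the 3 libraries of a group, pooled over all groups of the experiment and shrunk toward that of other genes. They do not reflect the spread of the compared groups alone.

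All 10 members are named. From 8 lists the rule was to name the called genes with the largest changes, up to 5 per list and comparison. It was not followed throughout. GVPE and SDP1 alone are named from their lists, and for some lists and comparisons only counts or no calls are given. Genes alike were to be ranked over 3 experiments, but no member is tested in the ethylene experiment, so 2 were used. The CRA1 levels under ACC, the RAB18, EM1 and EM6 levels and the libraries singled out were chosen after their values were seen. The members, the lists and the tests were chosen with earlier results of these data known.

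Other settings tried were RPM over nuclear genes, scaling by median of ratios, fits restricted to the libraries of the groups compared, a pseudocount of 0.25 RPM, no filter, a replicate block, edgeR 4.0.16 and DESeq2 1.42.0 on recovered reads (not for comparisons with gin2), and each library left out in turn. Robust shrinkage of the spread, and median-of-ratios scaling for the gene lists, were added after the data had been seen. Equal replicate numbers paired libraries (correlation of residuals above 0.1 in all 3 pairs) only for mock 4 h against mock 2 h, where no member is tested.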

Additional observations from a re-analysis of the deposited data

Results flagged for a closer look

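The table lists 4 of the 10 genes under gin2 and not under Ler, outside the values used above. All 24 of these values are whole reads at the step of the same-numbered Ler library, and 2 of 24 at the step of their own library. The highest value listed was 38.9 RPM for CRB, 33.7 RPM for SESA2, 19.2 RPM for SESA1 and 7.49 RPM for SESA4, each above the value of 3 reads. Which libraries these values came from was not tested beyond this match of steps, and no level of these 4 genes is drawn from them for gin2 or for Ler.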

How the results depend on the processing

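The 0 counts for glucose in tor and Col-0, and for the difference between them, did not change in any alternative run, leave-one-out included, and under ACC members could be tested only without the filter, where none was called (limma; 0 at 2 h and 1 at 4 h at an unadjusted p below 0.05). For tor over Col-0 without glucose the 3 calls became 5 in a fit to only the groups compared, 5 with DESeq2 (OLEO1 and OLEO2 added in both), 1 with robust shrinkage, chosen after seeing the data, and 1 to 5 with a library left out. With glucose the 1 call became 4 with edgeR and 4 with DESeq2 (SESA3, OLEO1 and OLEO2 added), and 1 to 2 with a library left out. For glucose in Ler the 3 calls became 4 in a fit to only the groups compared, 4 without both Ler libraries numbered 3 (SESA5 added in both), 0 with median-of-ratios scaling, 0 with RPM over nuclear genes, 1 with a pseudocount of 0.25 RPM (CRA1), 0 with robust shrinkage, 0 with edgeR, 0 with DESeq2, and 0 to 6 with a library left out. For glucose in gin2 the 0 calls became 1 in a fit to only the groups compared, and for the difference between gin2 and Ler they were 0 to 1 with a library left out. The cause of these shifts was not tested. The replicate block moved no count of called members, which stayed at 3, 1 and 3 for these comparisons. Changes that turned sign were SESA2 at 0.573 with edgeR and 0.547 with DESeq2, and SESA5 at 0.18 with a pseudocount of 0.25 RPM, for the glucose change in tor minus that in Col-0. For glucose in Ler they were SESA5 at -0.039 with edgeR and -0.062 with DESeq2, OLEO1 at -0.014 and OLEO2 at -0.026 with DESeq2. OLEO1 for the glucose change in gin2 minus that in Ler was 0.098 with that pseudocount. None of these was called. With a library left out, 32 changes of uncalled members turned sign at least once, over the log2 ranges that follow. For glucose in Col-0 they were CRA1 -0.29 to 1.41, CRC -0.53 to 1.29, OLEO1 -0.11 to 0.74, OLEO2 -0.15 to 0.48 and SESA5 -0.33 to 1.01. For glucose in gin2 they were CRA1 -0.12 to 1.01, CRC -0.012 to 1.36, OLEO1 -0.023 to 0.86, SESA3 -0.14 to 0.91 and SESA5 -0.22 to 0.95. For glucose in tor they were CRA1 -2.33 to 0.25, CRC -1.82 to 0.48, OLEO1 -0.66 to 1.37, OLEO2 -1.07 to 1.66, SESA3 -0.071 to 1.88, SESA4 -0.61 to 0.59 and SESA5 -0.049 to 1.41. For the glucose change in gin2 minus that in Ler they were CRC -1.93 to 0.20, OLEO1 -0.68 to 0.73, OLEO2 -0.16 to 1.28 and SESA5 -1.67 to 0.46. For glucose in Ler they were OLEO1 -0.25 to 1.16, OLEO2 -0.40 to 1.04 and SESA5 -0.014 to 2.11. For the glucose change in tor minus that in Col-0 they were OLEO1 -1.08 to 0.94, OLEO2 -1.34 to 1.39, SESA2 -0.55 to 0.037, SESA4 -0.34 to 0.86 and SESA5 -0.60 to 0.87. For tor over Col-0 without glucose they were SESA3 -0.54 to 0.89 and SESA4 -0.33 to 0.46. For tor over Col-0 with glucose they were SESA4 -0.19 to 0.97. At these depths levels under the value of 3 reads cannot be ranked, which holds for most ethylene values.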
